A study of Mus musculus with 24 samples.

Results

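The expression of 39 genes of DNA replication was followed in RAW264.7 cells and in bone marrow-derived macrophages (BMDMs), wild type or Olfml3 knockout, with PBS or with lipopolysaccharide (LPS). The genes were chosen by symbol, and each symbol was found once in both tables of 56691 genes. All 39 were among the genes tested, which numbered 26740 in RAW264.7 and 26973 in BMDMs (FPKM above 0 in at least 1 library), and all 39 had a mean FPKM of at least 1 in both cell types. FPKM is the number of fragments scaled by the gene's length in kilobases and by the library's depth.

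The study asked what OLFML3, a secreted glycoprotein, does in macrophages, and 24 RNA-seq libraries were analysed here, in 8 groups of 3. RAW264.7 is a dividing macrophage-like mouse line, and its 4 groups were wild type with PBS, wild type with LPS, Olfml3 knockout with PBS and Olfml3 knockout with LPS. The RAW264.7 knockout was made with CRISPR-Cas9 and came from sorted single-cell clones, and which or how many clones gave these libraries is not given in the sources used here, so clone and genotype cannot be told apart. BMDMs had the same 4 groups and were grown in IMDM with L929 cell supernatant, which carries macrophage growth factor, from male C57BL/6 mice aged 8 weeks, wild type or with CRISPR-made Olfml3-/- alleles. Cells took LPS for 4 h at 100 ng/mL. The study speaks of biological replicates, and whether the libraries of a group came from separate cultures or mice is not given in the sources used here, so the p-values measure the spread between these libraries, which may be technical. In bulk RNA, fewer cycling cells and less replication mRNA per cell cannot be told apart. By EdU assay the study reported that wild-type and Olfml3-/- RAW264.7 cells proliferated similarly, and the treatment of those cells is not given in the sources used here.

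DNA is copied in S phase by a machine built in steps. In G1 phase the origin recognition complex, with Cdc6 and Cdt1, loads the ring-shaped Mcm2-7 helicase onto origins, and in S phase Cdc45 and the GINS complex switch the helicase on. Polymerase alpha with primase then lays primers, polymerases epsilon and delta extend them on the sliding clamp Pcna, and Fen1 and Lig1 seal the lagging strand. Most of these genes are transcribed as cells enter S phase, through E2F factors that cyclin E and its kinase free from retinoblastoma proteins, so their mRNA serves widely as a mark of cycling cells. Macrophages divide in response to macrophage growth factor, and LPS is known to stop that division.

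Promoter sequence is shown first, because nearly all of the 39 genes fell after LPS and E2F factors act at promoters. RefSeq windows of GRCm38.p6, from 250 bases before to 50 bases after the start of transcription, were available for 32 members, and Mcm4, Gins1, Gins2, Gins4, Pole, Rfc2 and Ccne2 had no entry. The 4 letter forms TTTCCCGC, TTTGGCGC, TTTCGCGC and TTTGCCGC of the E2F consensus were searched on both strands, and a match to 1 form may overlap a match to another on the opposite strand. At least 1 form was found for 16 of the 32 members (50%), against 704 of all 27025 gene symbols in the table (2.6%) and 744 of its 32851 windows of that length (2.26%). By role, a match was found for 4 of 5 Mcm2-7 genes, 3 of 4 licensing genes, 1 of 3 helicase activation genes, 3 of 5 polymerase and primase genes, 2 of 6 clamp, loader and lagging strand genes, 0 of 4 nucleotide supply genes, and 3 of 5 genes of S-phase entry, checkpoint and methylation copying. The same search matched 5 of 27 other replication genes, 1 of 20 mitosis genes and 6 of 15 regulators of G1 phase. A match is a run of letters, not a bound site.

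The windows of 4 members are printed 5′ to 3′ on the gene's own strand, with E2F forms in capitals, to show matches upstream of the start, past the start and absent. Cdc6 lies at chr11:98907901-98908200 on the plus strand, and its window holds TTTCCCGC on the opposite strand, so that it reads GCGGGAAA, at position -138 from the start. Pold1 lies at chr7:44548766-44549065 on the minus strand, with the same form at position 39 past the start. Rrm2 lies at chr12:24708004-24708303 on the plus strand, without a match in this window. Mcm6 lies at chr1:128359656-128359955 on the minus strand and was added after its matches had been seen, since its 3 matches, at -110, -106 and -47, were the most in any member, and the first 2 overlap on opposite strands. Of the 6 windows chosen as the smallest adjusted p of each role, Cdc6 and Pold1 held a match, and Mcm2, Cdc45, Rfc4 and Rrm2 did not. Of the latter Rrm2 alone is printed.
Cdc6: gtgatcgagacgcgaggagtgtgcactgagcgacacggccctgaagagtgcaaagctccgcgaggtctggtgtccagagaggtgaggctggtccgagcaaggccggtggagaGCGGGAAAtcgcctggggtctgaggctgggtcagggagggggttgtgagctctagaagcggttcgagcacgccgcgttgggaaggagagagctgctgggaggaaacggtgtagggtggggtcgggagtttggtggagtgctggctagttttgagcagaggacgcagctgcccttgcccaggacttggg
Pold1: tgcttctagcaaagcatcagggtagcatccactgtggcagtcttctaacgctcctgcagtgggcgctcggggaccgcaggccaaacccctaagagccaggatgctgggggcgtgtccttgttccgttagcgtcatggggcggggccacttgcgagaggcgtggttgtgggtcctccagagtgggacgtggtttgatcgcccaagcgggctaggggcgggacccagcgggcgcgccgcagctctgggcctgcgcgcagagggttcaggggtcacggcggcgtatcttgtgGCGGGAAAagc
Rrm2: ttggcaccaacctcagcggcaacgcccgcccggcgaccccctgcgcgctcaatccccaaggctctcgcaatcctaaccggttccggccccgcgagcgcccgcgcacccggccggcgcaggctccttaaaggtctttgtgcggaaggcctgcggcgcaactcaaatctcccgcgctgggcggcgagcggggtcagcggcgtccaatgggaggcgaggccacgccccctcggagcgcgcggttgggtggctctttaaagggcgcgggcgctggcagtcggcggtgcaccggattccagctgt
Mcm6: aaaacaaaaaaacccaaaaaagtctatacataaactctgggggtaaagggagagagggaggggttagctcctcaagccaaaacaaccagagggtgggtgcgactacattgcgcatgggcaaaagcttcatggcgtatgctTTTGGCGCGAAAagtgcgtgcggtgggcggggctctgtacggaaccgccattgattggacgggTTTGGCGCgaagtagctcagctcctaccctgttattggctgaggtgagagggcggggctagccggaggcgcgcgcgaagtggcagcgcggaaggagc

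**Figure D1:**
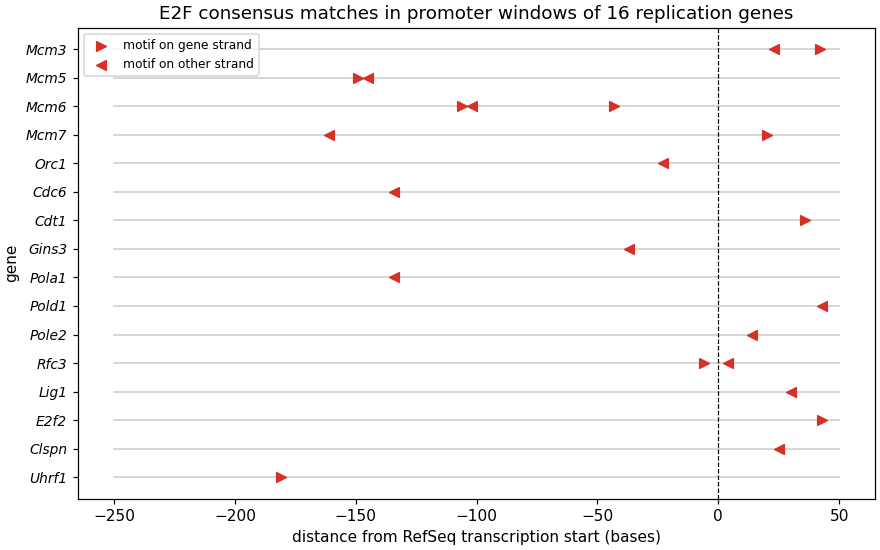
Positions of E2F consensus matches in the promoter windows of the 16 members with at least 1 match. The horizontal axis is the distance in bases from the RefSeq start of transcription (dashed line at 0), grey lines span the window searched, and each triangle is a match, pointing right where it lies on the gene's strand. The 22 matches are spread from 185 bases before the start (Uhrf1) to 39 bases after it (Pold1 and E2f2).

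Before the members' results, the libraries were checked. RAW264.7 libraries held 11638273 to 16478616 counts, and BMDM libraries 17121240 to 22873094. The genotype tag contradicts the title in 12 of 24 libraries, and groups follow the titles. In BMDMs Olfml3 itself was at 0.597 ± 0.0611 FPKM (SD, n = 3) in wild type with PBS and at 0.0167 ± 0.0115 in knockout. In RAW264.7 the level went against the label, at 0.163 ± 0.0231 FPKM in wild type and 0.95 ± 0.275 in the libraries labelled knockout with PBS, and at 0.183 ± 0.0924 and 18.7 ± 0.311 with LPS, and reads outside the cut site would not show an edit. So each RAW264.7 genotype is given as labelled. Labelled knockout PBS library 1 correlated less with its own group (mean r = 0.936) than with wild type (0.956). Counts of member DEGs between genotypes with PBS and after LPS in labelled knockout are also given without it. Counts of members whose libraries lie apart, and the median interaction, are given only with it. The 8 macrophage markers were all at 1 FPKM or more in BMDMs. In RAW264.7 Mertk was at 0 in all 12 libraries, 7 of 8 were at 1 FPKM or more, and their sum was 3344 to 4013 FPKM in the wild-type libraries against 1145 to 1420 in those labelled knockout. The lower sum with PBS came mainly from Lyz2 (means of 2052 and 317 FPKM) and Cd14 (445 and 107). With PBS 5 markers were lower in labelled knockout and 2 higher, Csf1r (263 and 340) and Fcgr1 (18.3 and 22.1). With LPS 7 were lower and 0 higher. No marker of neutrophils, lymphocytes, erythroid cells, progenitors or fibroblasts reached a group mean of 1 FPKM in RAW264.7. In BMDMs 2 of 8 neutrophil and 1 of 8 lymphocyte markers did, with sums of 5.57 to 8.64 and 3.34 to 8.63 FPKM.

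Replication genes were well expressed at rest in both cell types. In wild-type cells with PBS the median member stood at 26.3 FPKM in RAW264.7, from 7.43 (Pole) to 202 (Pcna), and at 5.86 FPKM in BMDMs, from 1.84 (Orc1) to 240 (Pcna). The level was higher in RAW264.7 for 38 of the 39, all but Pcna, in 2 tables that were normalised separately and were not tested against each other. The order of members was similar, with a Spearman coefficient of 0.852 over the 39 genes, which share the same libraries. Pcna led in both, followed by Mcm3, Mcm5 and Rrm2 in RAW264.7 and by Mcm6, Mcm3 and Mcm4 in BMDMs. The origin recognition subunit Orc1 and the polymerase epsilon subunits Pole and Pole2 were among the lowest in both. In RAW264.7, Mcm3 at 95.3, 96.6 and 98.4 FPKM, Mcm5 at 90.04, 92.3 and 95.8 and Rrm2 at 93.1, 93.02 and 91.2 stood close together, and the range of Mcm5 overlapped both of the others.

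**Figure D2:**
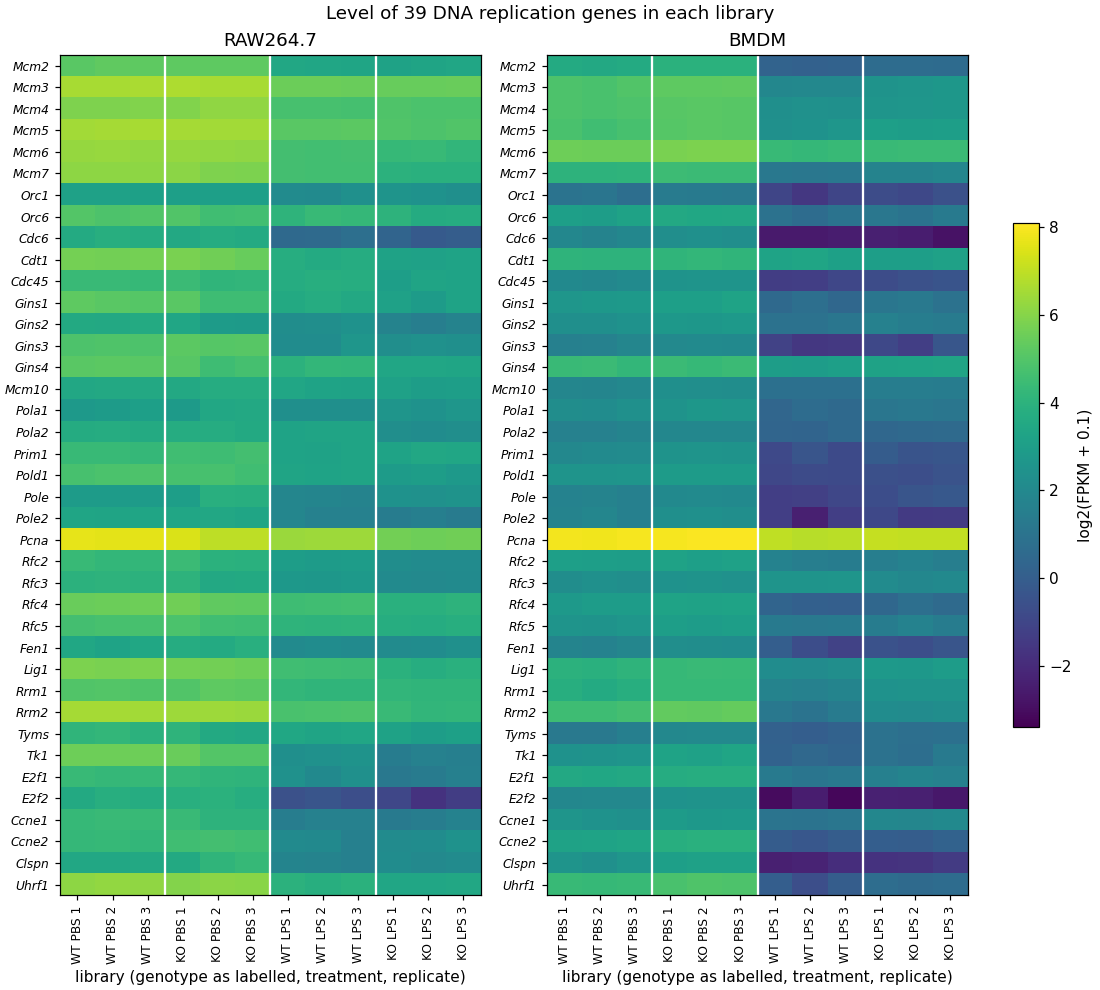
Level of each of the 39 genes in each library of RAW264.7 (left) and BMDMs (right), as colour on a log2(FPKM + 0.1) scale, with genes ordered by role and white lines between groups of 3 libraries. The columns with LPS are darker than those with PBS for nearly every gene, and Rfc3 in BMDMs stays at 3.64 to 6.04 FPKM throughout.

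The mean of the 39 genes on the log2(FPKM + 0.1) scale puts the 8 groups in order. In RAW264.7 it was 4.76 ± 0.00766 (SD, n = 3) in wild type with PBS, 4.72 ± 0.0603 in labelled knockout with PBS, 3.26 ± 0.00804 in wild type with LPS and 2.93 ± 0.0368 in labelled knockout with LPS. The 2 PBS groups overlapped, and labelled knockout library 1 stood at 4.79 and libraries 2 and 3 at 4.70 and 4.68, on either side of the wild-type range of 4.76 to 4.77. In BMDMs it was 3.07 ± 0.0371 in wild type with PBS, 3.46 ± 0.00839 in knockout with PBS, 0.69 ± 0.0466 in wild type with LPS and 1.11 ± 0.0383 in knockout with LPS, and no 2 groups overlapped. The order of genotypes with LPS was opposite in the 2 cell types, a contrast that was not tested. As a share of all counts, the 39 genes took 0.578 to 0.585% in wild-type RAW264.7 with PBS and 0.224 to 0.228% with LPS, and 0.222 to 0.237% and 0.068 to 0.0721% in wild-type BMDMs. No test was made on the mean, since the members were chosen with results known.

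**Figure D3:**
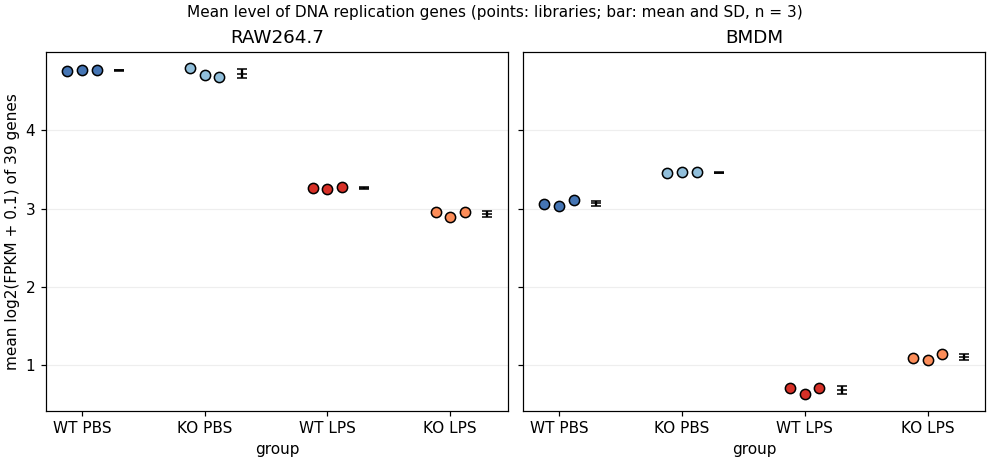
Mean log2(FPKM + 0.1) of the 39 genes in each library, by group. Points are libraries and the bar beside them is the group mean with its SD (n = 3). With LPS the labelled knockout libraries lie below wild type in RAW264.7 (2.89 to 2.95 against 3.25 to 3.27) and knockout libraries lie above it in BMDMs (1.07 to 1.15 against 0.63 to 0.72).

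LPS lowered nearly all of the 39 genes in wild-type cells of both kinds. A DEG here is a gene changed 1.5-fold or more whose adjusted p (limma, Benjamini-Hochberg) was below 0.05, and errors of log2 fold changes are standard errors. In RAW264.7, 37 of 39 members were lower DEGs, where 12.5% of all genes tested were, and 0 were higher, by limma, edgeR or DESeq2 or at an unadjusted p under 0.05, where 5.80% were. In BMDMs 38 of 39 were lower, where 32.5% of all genes were, and 0 were higher by limma, where 7.94% were, with 1, Rfc3, higher at an unadjusted p under 0.05 and in edgeR and DESeq2. The median log2 fold change of the members was -1.28 in RAW264.7 and -2.26 in BMDMs, against -0.21 and -0.73 over all genes with a mean FPKM of at least 1. The members left out were Mcm10 (-0.22 ± 0.08, SE, adjusted p = 0.0999) and Pola2 (-0.38 ± 0.07, 0.00231) in RAW264.7 and Rfc3 in BMDMs. The fall was at least 4-fold for 8 members in RAW264.7 and for 25 in BMDMs, and at least 8-fold for 3 and 11. With LPS, 1 member in RAW264.7 and 13 in BMDMs were below a mean of 1 FPKM in wild type, and none with PBS. Under median-ratio scaling, which put the median of all expressed genes at 0.03 in RAW264.7 and 0.06 in BMDMs in place of -0.21 and -0.73, the members' medians were -1.04 and -1.48, the falls of at least 4-fold were 7 and 15 and of at least 8-fold 1 and 4, 31 members were lower in RAW264.7, and 30 were lower and 1 higher in BMDMs. Calls and adjusted p of single genes after LPS given below are from limma on FPKM unless another fit is named, and this scaling kept fewer of the calls. Macrophage markers summed to 3344 to 3402 FPKM with PBS and 3880 to 4013 with LPS in wild-type RAW264.7, and to 14853 to 15277 and 12369 to 12637 in BMDMs. The members of this list went both ways, with 5 higher and 2 lower by their means in RAW264.7, where Cd14 went from 445 to 1135 and Csf1r from 263 to 100.2, and 3 higher and 5 lower in BMDMs. In BMDMs progenitor markers went from 0.96 to 1.13 to 0.22 to 0.33 and lymphocyte markers from 7.76 to 8.63 to 4.46 to 5.00. Their part in the result was not tested.

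**Figure D4:**
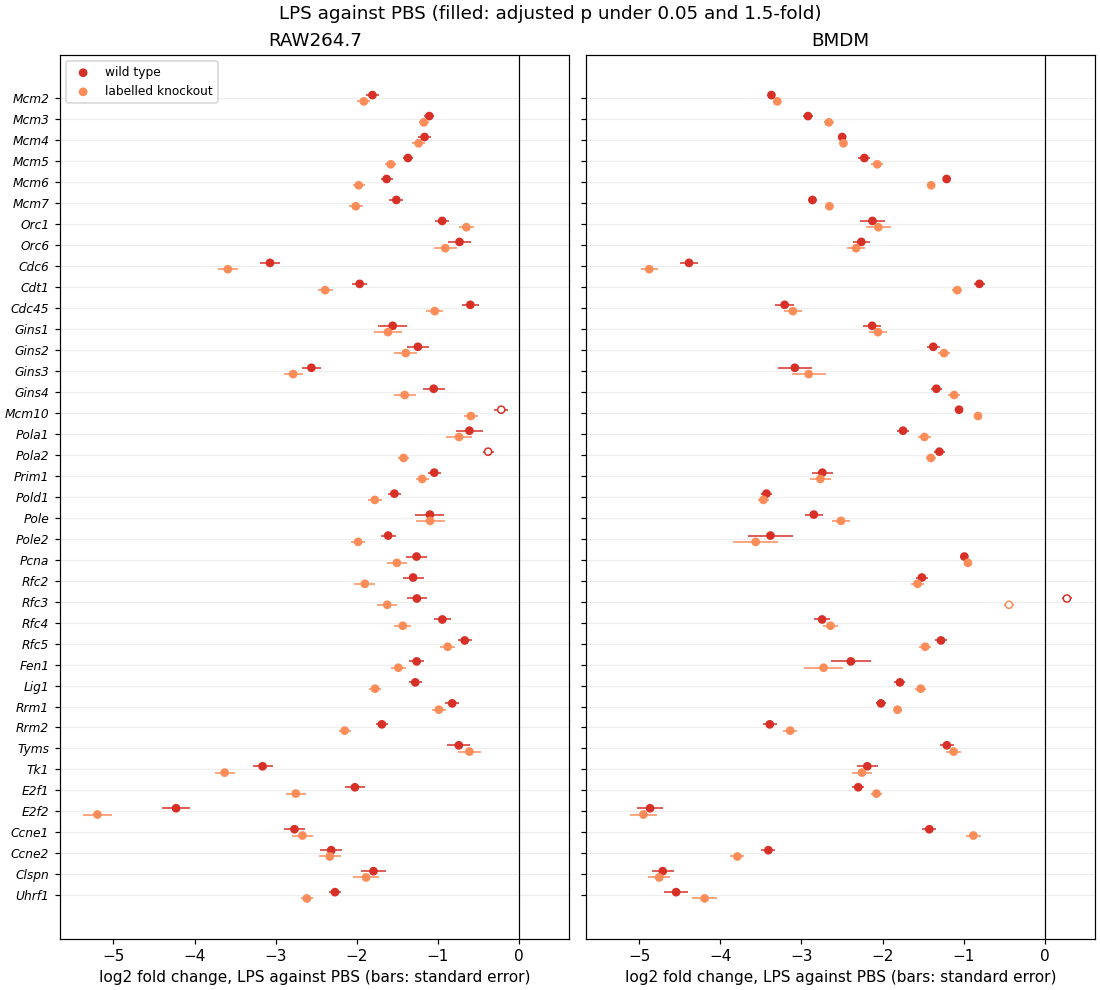
Log2 fold change, LPS against PBS, of each of the 39 genes in wild type (red) and labelled knockout (orange), in RAW264.7 (left) and BMDMs (right). Bars are standard errors and filled points are DEGs. Points lie left of 0 except Rfc3 in wild-type BMDMs (under median-ratio scaling also Rfc3 in knockout and Mcm10 in wild-type RAW264.7), and E2f2 lies farthest left in both cell types.

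The single largest fall in RAW264.7 was that of E2f2. E2f2, a transcriptional activator of S-phase genes, read 11.96, 14.01 and 13.01 FPKM in the wild-type RAW264.7 libraries with PBS and 0.58, 0.68 and 0.54 with LPS. In BMDMs it read 3.72, 3.83 and 3.84 and then 0.02, 0.08 and 0.01, the last 3 from 2, 9 and 1 counts. E2f2 was thus near the limit of detection in BMDMs after LPS, and its log2 fold change of -4.87 ± 0.16 (adjusted p = 3.26e-09, limma) was -2.21 with a pseudocount of 1 and -5.94 in edgeR on counts. In RAW264.7 the change was -4.23 ± 0.18 (adjusted p = 1.17e-07). E2f1, the founding E2F activator, read 20.1, 18.9 and 19.8 FPKM with PBS and 5.18, 4.12 and 5.03 with LPS in RAW264.7 (-2.02 ± 0.12), and fell by 2.30 in BMDMs. Cyclin E1 (Ccne1), the regulatory subunit of the kinase that opens S phase, read 19.7, 21.2 and 20.6 and then 2.67, 3.09 and 3.02 FPKM in RAW264.7, without overlap (-2.77 ± 0.13, adjusted p = 2.44e-07). In BMDMs Ccne1 moved less, from 5.99, 5.37 and 5.00 to 1.96, 1.86 and 2.08 (-1.42 ± 0.09). Its partner gene Ccne2 fell by 2.31 in RAW264.7 and in BMDMs went from 9.35, 9.49 and 10.2 to 0.85, 0.72 and 0.9 FPKM (-3.41 ± 0.09). Ccne1 fell more in RAW264.7 and Ccne2 more in BMDMs, a contrast between tables that was not tested.

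Clspn, the claspin adaptor of the replication checkpoint, and Uhrf1, which guides the copying of DNA methylation, fell to below 1 FPKM in BMDMs. Clspn read 5.82, 5.13 and 6.16 FPKM with PBS and 0.09, 0.11 and 0.17 with LPS in BMDMs (-4.71 ± 0.14, adjusted p = 1.31e-09), and in RAW264.7 it fell by 1.79. Uhrf1 read 20.4, 19.7 and 20.2 and then 0.93, 0.54 and 0.88 in BMDMs (-4.55 ± 0.15, adjusted p = 3.42e-09). In RAW264.7 Uhrf1 kept a higher level after LPS, at 15.8, 14.1 and 15.3 against 70.1, 74.4 and 74.02 FPKM (-2.27 ± 0.08). All 6 genes of this role were lower DEGs in both cell types, with medians of -2.29 and -3.98, the lowest of the 7 roles in each.

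Among the 4 origin licensing genes, the loader Cdc6 stood apart from its partner Cdt1. Cdc6 read 12.3, 13.7 and 13.2 FPKM with PBS and 1.36, 1.40 and 1.66 with LPS in RAW264.7 (-3.07 ± 0.12, adjusted p = 8.86e-08). In BMDMs it read 3.69, 3.26 and 3.65 and then 0.07, 0.07 and 0.08, the latter from 8 or 9 counts each (-4.39 ± 0.11). Cdt1, the most abundant licensing gene, read 51.4, 50.5 and 51.1 and then 13.4, 12.4 and 13.2 in RAW264.7 (-1.96 ± 0.09), but 16.6, 16.5 and 16.5 and then 9.58, 10.1 and 8.73 in BMDMs (-0.80 ± 0.06, adjusted p = 1.70e-06), the smallest fall among the DEGs there, which median-ratio scaling (-0.0069) and edgeR (-0.097) did not call. The origin recognition subunits Orc1 and Orc6 fell by 0.94 and 0.73 in RAW264.7 and by 2.12 and 2.26 in BMDMs. By limma on FPKM, all 4 were lower DEGs in RAW264.7, where 12.5% of all genes were, and in BMDMs, where 32.5% were. Their groups of libraries did not overlap, and the share of all genes without overlap after LPS was not counted.

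The 6 subunits of the Mcm2-7 helicase fell together, by 1.10 to 1.81 in RAW264.7 and by 1.21 to 3.37 in BMDMs. Mcm3, the most abundant in RAW264.7, read 95.3, 96.6 and 98.4 FPKM with PBS and 45.4, 45.8 and 43.8 with LPS (-1.10 ± 0.06, adjusted p = 1.11e-06). Mcm6, the most abundant in BMDMs and the one with 3 E2F forms, read 46.8, 45.1 and 46.1 and then 20.4, 19.1 and 20.1 (-1.21 ± 0.04, adjusted p = 5.98e-09). Mcm6 was the subunit that fell least in BMDMs, where Mcm2 (-3.37 ± 0.04), Mcm3 (-2.92 ± 0.06) and Mcm7 (-2.86 ± 0.05) fell most, although the proteins work in equal numbers in 1 ring. The level of Mcm6 in BMDMs with LPS was 19.8 ± 0.707 FPKM (SD, n = 3), and those of the other 5 were 1.07 to 5.51 FPKM. In RAW264.7 with LPS the 6 levels ran from 10.7 (Mcm2) to 44.98 (Mcm3).

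Of the 6 helicase activation genes, Gins3 fell most in RAW264.7, from 29.3, 30.3 and 29.8 FPKM to 4.50, 4.47 and 6.12 (-2.56 ± 0.12, adjusted p = 2.28e-07), while the other GINS subunits fell by 1.05 to 1.56. Gins4, the most abundant, read 35.7, 37.1 and 35.7 and then 15.7, 18.6 and 18.1 in RAW264.7, and 20.98, 21.3 and 18.6 and then 7.85, 7.55 and 8.55 in BMDMs (-1.34 ± 0.07). Cdc45, which joins GINS and the Mcm ring in the active helicase, changed by -0.60 ± 0.11 in RAW264.7, just past 1.5-fold, and by -3.21 ± 0.11 in BMDMs. Mcm10, a factor that helps start the helicase, fell by 1.06 in BMDMs, a call lost under median-ratio scaling (-0.28), and did not pass the thresholds in RAW264.7, where that scaling turned its sign (0.02). The GINS subunits of BMDMs fell by 1.34 (Gins4), 1.37 (Gins2), 2.13 (Gins1) and 3.08 (Gins3).

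By limma on FPKM, all 6 polymerase and primase genes were lower DEGs in BMDMs, and 5 of 6 in RAW264.7. Pold1, the catalytic subunit of polymerase delta and the most abundant of them, read 26.8, 28.9 and 29.5 FPKM and then 9.81, 9.61 and 9.77 in RAW264.7 (-1.53 ± 0.09), and 5.84, 5.79 and 5.96 and then 0.41, 0.49 and 0.46 in BMDMs (-3.43 ± 0.07, adjusted p = 9.92e-11). Within polymerase alpha and primase, the log2 fold changes in RAW264.7 were -0.61 ± 0.16 for the catalytic subunit Pola1, -0.38 ± 0.07 for the regulatory subunit Pola2 and -1.04 ± 0.08 for the primase Prim1. In BMDMs they were -1.75, -1.30 and -2.74. The polymerase epsilon subunits Pole and Pole2 fell by 1.10 and 1.61 in RAW264.7 and by 2.85 and 3.38 in BMDMs.

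The clamp Pcna, by far the most abundant member, kept a high level. It read 207, 198 and 199.8 FPKM with PBS and 83.8, 84.5 and 83.99 with LPS in RAW264.7 (-1.26 ± 0.12, adjusted p = 4.16e-05), and 241, 233 and 247 and then 128, 116 and 119 in BMDMs (-0.99 ± 0.05, adjusted p = 5.31e-08). Pcna also takes part in DNA repair. Of the clamp loader subunits, Rfc2, Rfc4 and Rfc5 fell by 0.67 to 1.30 in RAW264.7 and by 1.28 to 2.75 in BMDMs. Rfc3 was the exception in BMDMs, where it read 4.64, 5.08 and 4.81 FPKM with PBS and 5.79, 5.79 and 6.04 with LPS. Its groups did not overlap, and it was higher with LPS by 0.27 ± 0.07 (adjusted p = 0.00557), short of 1.5-fold, while median-ratio scaling gave 1.06 and a higher DEG. In RAW264.7 Rfc3 fell like its partners, by 1.26. The flap nuclease Fen1 and the ligase Lig1, which finish lagging strand pieces, fell by 1.26 and 1.28 in RAW264.7 and by 2.39 and 1.79 in BMDMs.

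By limma on FPKM, all 4 nucleotide supply genes were lower DEGs in both cell types. Rrm2, the subunit of ribonucleotide reductase made in S phase, read 93.1, 93.02 and 91.2 FPKM and then 28.1, 28.6 and 29.1 in RAW264.7 (-1.69 ± 0.07), and 23.3, 23.1 and 25.4 and then 2.22, 1.90 and 2.48 in BMDMs (-3.39 ± 0.09, adjusted p = 6.50e-10). Its partner subunit Rrm1 fell less, by 0.82 in RAW264.7 and by 2.02 in BMDMs. Thymidine kinase Tk1, which salvages thymidine, fell most in RAW264.7, from 47.3, 47.7 and 47.1 FPKM to 4.91, 5.22 and 5.52 (-3.16 ± 0.12, adjusted p = 7.36e-08), and in BMDMs from 5.43, 5.50 and 5.96 to 1.05, 1.29 and 1.14 (-2.19 ± 0.13). Thymidylate synthase Tyms, which makes thymidylate anew, fell by 0.74 and 1.21. The difference between Tk1 and Tyms was not tested.

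Members with and without an E2F form in their window were set side by side. In wild-type RAW264.7 the 16 members with a form had a median log2 fold change after LPS of -1.57, from -4.23 to -0.61, and the 16 without had -0.99, from -3.16 to -0.22. In BMDMs the medians were -2.89, from -4.87 to 0.27, and -2.23, from -3.39 to -0.99. The ranges overlapped widely. The lowest members in BMDMs, E2f2, Cdc6, Clspn and Uhrf1, held a form, while Tk1 and Ccne1, the second and the fourth lowest in RAW264.7, held none in these windows, and Rfc3, which held 2, was at 0.27 in BMDMs. These values are a description without a test. The changes of the 39 genes in RAW264.7 and BMDMs were related with a Spearman coefficient of 0.441 and a Pearson coefficient of 0.502 over genes that are not independent.

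In the libraries labelled knockout LPS was tested in the same way. All 39 members were lower DEGs in RAW264.7 libraries labelled knockout, where 14.6% of all genes were, and 0 were higher, where 7.45% were. In knockout BMDMs 38 of 39 were lower, where 30.9% of all genes were, and 0 were higher, where 8.02% were, and Rfc3 was again left out (-0.44 ± 0.07, adjusted p = 2.48e-04, and 0.24 under median-ratio scaling). The medians were -1.61 and -2.25, against -0.23 and -0.62 over expressed genes. E2f2 had the lowest log2 fold change, from 14.5, 15.3 and 13.6 FPKM to 0.42, 0.2 and 0.3 in RAW264.7 (-5.20 ± 0.18) and from 5.43, 5.65 and 5.55 to 0.1, 0.09 and 0.06 in BMDMs (-4.95 ± 0.16). In RAW264.7 it was followed by Tk1 (-3.63 ± 0.12), Cdc6 (-3.59 ± 0.12), Gins3 (-2.78 ± 0.12) and E2f1 (-2.75 ± 0.12). In BMDMs it was followed by Cdc6 (-4.88 ± 0.11), Clspn (-4.76 ± 0.14), Uhrf1 (-4.20 ± 0.15) and Ccne2 (-3.79 ± 0.09). E2f2 and Cdc6 in BMDMs were within 1 SE of each other, at 26 and 23 counts over the 3 knockout LPS libraries, and their order turned in edgeR (-5.37 and -5.46) and DESeq2 (-5.31 and -5.40), while with a pseudocount of 1 they were at -2.59 and -2.45. Under median-ratio scaling 35 members were lower in RAW264.7 and 31 in BMDMs, and 0 were higher by limma, edgeR or DESeq2 or at an unadjusted p under 0.05. Without labelled knockout PBS library 1, 38 were lower in RAW264.7.

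Whether LPS acted differently on the genotypes was tested with the interaction term. In RAW264.7 it passed for 1 member, where 1.95% of all genes passed in either direction. That member was Pola2, which read 12.7, 12.9 and 12.3 FPKM in wild type and 13.1, 13.1 and 12 in labelled knockout with PBS, and 9.64, 9.74 and 9.78 and 4.70, 4.54 and 4.83 with LPS. The 2 genotypes overlapped with PBS and stood apart with LPS, and the interaction was -1.04 ± 0.10 (adjusted p = 6.17e-04, limma). In BMDMs the term also passed for 1 member, where 2.93% of all genes passed. Rfc3 read 5.39, 5.65 and 5.23 FPKM in knockout with PBS and 4.29, 3.64 and 4.00 with LPS, while wild type was at 4.64, 5.08 and 4.81 and 5.79, 5.79 and 6.04. Knockout was above wild type with PBS and below it with LPS, and the interaction was -0.71 ± 0.09 (adjusted p = 0.00222). The median interaction over members was -0.24 in RAW264.7 and 0.07 in BMDMs, against -0.02 and 0.11 over expressed genes. The interaction was negative for 35 of 39 members in RAW264.7 and 16 in BMDMs, where 6025 of 11336 and 3180 of 10555 expressed genes were. The BMDM median of members turned negative with a pseudocount of 1 (-0.06) and median-ratio scaling (-0.01). Leaving out labelled knockout LPS library 1 of RAW264.7 added E2f2 (-1.17, adjusted p = 0.0205), leaving out wild-type LPS library 2 or labelled knockout LPS library 3 added E2f1 (-0.83 and -0.84, adjusted p = 0.0455 and 0.0326), and edgeR and DESeq2 on counts added E2f1, E2f2 and Rfc2. In BMDMs, leaving out wild-type PBS library 3, knockout PBS library 1 or knockout LPS library 2 added Ccne1 (0.59 to 0.60).

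In BMDMs with PBS, replication mRNA was somewhat higher in Olfml3 knockout than in wild type. The knockout was above wild type for all 39 members, where 6296 of 10555 expressed genes were, except that median-ratio scaling put Gins4 at -0.0021. The members' median log2 fold change was 0.38 against 0.03 over expressed genes, and 5 members were higher DEGs, where 0.901% of all genes were. By limma, edgeR and DESeq2 0 were lower, where 0.916% were, and 0 were lower at an unadjusted p under 0.05. The 3 knockout libraries lay above the 3 wild-type libraries for 38 members, where 25.7% of genes with a mean FPKM of at least 1 did so, and below for 0, where 15.1% did. Gins4 was the member whose libraries overlapped, at 20.98, 21.3 and 18.6 FPKM in wild type and 21.7, 19.6 and 21.4 in knockout. Without the fold threshold, 20 of the 39 passed the adjusted p, where 1116 of all 26973 genes tested did. Beside this, the 8 macrophage markers summed to 14853 to 15277 FPKM in wild type and 16620 to 17811 in knockout. The higher sum came mainly from Lyz2 (means of 12309 and 14941 FPKM), with Csf1r also higher, while the means of the other 6 were lower in knockout, among them Cd68 (1656 and 1452) and Fcgr1 (119 and 53.4). The 6 progenitor markers, each below a mean of 1 FPKM, summed to 0.96 to 1.13 and 1.35 to 1.52, while the 8 lymphocyte markers summed to 7.76 to 8.63 and 6.48 to 6.75. Their part in the result was not tested.

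Among the 5 DEGs, 3 were nucleotide supply genes. Rrm2 read 23.3, 23.1 and 25.4 FPKM in wild-type BMDMs with PBS and 39.7, 39.3 and 41.9 in knockout, without overlap (0.75 ± 0.09, adjusted p = 0.00115). Tk1 read 5.43, 5.50 and 5.96 and 9.43, 8.94 and 10.1 (0.74 ± 0.13, adjusted p = 0.0107), and Tyms 2.25, 2.27 and 2.83 and 3.79, 3.90 and 3.91 (0.64 ± 0.09, adjusted p = 0.00311). Rrm1, the fourth gene of this role, was higher by 0.55 ± 0.06 (adjusted p = 4.88e-04), short of 1.5-fold, at 13.9, 12.4 and 13.8 against 19.4, 19.6 and 19.96 FPKM. The other DEGs were Clspn, at 5.82, 5.13 and 6.16 and 8.50, 8.95 and 8.85 FPKM (0.62 ± 0.14, adjusted p = 0.0376), and Ccne2, at 9.35, 9.49 and 10.2 and 14.1, 14.8 and 14.96 (0.59 ± 0.09, adjusted p = 0.00423). These last 2 calls were lost under median-ratio scaling and in edgeR and DESeq2, where their log2 fold changes were 0.55 to 0.58. The call of Clspn was also lost whichever of the 6 PBS libraries was left out (adjusted p = 0.0603 to 0.126, limma). That of Ccne2 was lost without wild-type library 1 or 2 or knockout library 2 or 3 (0.57 to 0.58, short of 1.5-fold). With a pseudocount of 1 the calls of Tyms (0.50), Clspn (0.55) and Ccne2 (0.55) were lost. The MCM subunits were higher by 0.28 to 0.40, each with an adjusted p under 0.05 but none past 1.5-fold. Pcna, Cdt1 and Rfc2, at 0.10 each, and Gins4, at 0.04, had the smallest differences.

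In BMDMs with LPS, 13 members were higher DEGs in knockout, where 3.23% of all genes were, and 0 were lower by limma, where 1.53% were, while 2 were lower at an unadjusted p under 0.05. The median was 0.45, against 0.14 over expressed genes, and 36 of 39 were positive, where 7659 of 10555 expressed genes were. Of the 36, Mcm6, Pola2, Pcna, Rfc2 and Fen1 turned negative under median-ratio scaling. Knockout libraries lay above wild type for 28 members, where 43.4% of expressed genes did so, and below for 1, Rfc3, where 13.0% did. All 4 nucleotide supply genes, Mcm3, Mcm7, Cdc45, Mcm10, Pola1, Pole, Lig1, Ccne1 and Uhrf1 rose, while the 4 origin licensing genes did not pass the thresholds, Orc1 and Orc6 having all 3 knockout libraries above wild type. Rrm2 again rose most, from 2.22, 1.90 and 2.48 to 4.44, 4.33 and 4.68 FPKM (1.00 ± 0.09, adjusted p = 9.05e-05). Ccne1 read 1.96, 1.86 and 2.08 and 3.66, 3.52 and 4.12 (0.90 ± 0.09, adjusted p = 1.51e-04), and Uhrf1 0.93, 0.54 and 0.88 and 1.56, 1.40 and 1.51 (0.88 ± 0.15, adjusted p = 0.00336). Rrm1 read 3.30, 3.03 and 3.33 and 5.47, 5.54 and 5.53 (0.76 ± 0.06), Tyms 1.01, 0.93 and 1.06 and 1.83, 1.62 and 1.72 (0.73 ± 0.09), and Tk1 1.05, 1.29 and 1.14 and 1.81, 1.61 and 2.37 (0.68 ± 0.13). In each of these 6 genes the knockout libraries were above all wild-type libraries, and Rrm2, Tk1 and Tyms were DEGs with PBS as well as with LPS. The levels stayed far below those with PBS.

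The other 7 higher DEGs in knockout BMDMs with LPS were Pole (0.72 ± 0.12), Mcm3 (0.64 ± 0.06), Cdc45 (0.62 ± 0.11), Mcm10 (0.62 ± 0.05), Lig1 (0.61 ± 0.07), Pola1 (0.61 ± 0.08) and Mcm7 (0.59 ± 0.05). Rfc3 was at -0.55 ± 0.07 (adjusted p = 4.43e-04), short of 1.5-fold, and Cdt1 and Cdc6 were at -0.17 and -0.04. Under median-ratio scaling 6 were higher and 1, Rfc3, lower, in edgeR 8 and 1, in DESeq2 7 and 1, and with a pseudocount of 1 there were 3 higher. Of the 6 genes above, Rrm2, Ccne1, Uhrf1, Rrm1 and Tyms kept their calls under median-ratio scaling and Tk1 did not (0.54). The call of Tk1 was also lost without knockout LPS library 3 (0.52) and in edgeR (0.57) and DESeq2 (0.56). Those of Uhrf1 and Tk1 were lost in a fit of the 2 groups alone (adjusted p = 0.0715 and 0.0775), and those of Uhrf1, Tyms and Tk1 with a pseudocount of 1 (0.49, 0.45 and 0.43). Macrophage markers summed to 12369 to 12637 FPKM in wild type and 12875 to 13153 in knockout with LPS, where Lyz2 had means of 9959 and 10821 and 5 of the 8 were lower in knockout, among them Fcgr1 (260 and 167) and Mertk (60.2 and 40.1). Progenitor markers summed to 0.22 to 0.33 and 0.58 to 0.73, and lymphocyte markers to 4.46 to 5.00 and 3.34 to 3.75. Their part in the result was not tested.

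**Figure D5:**
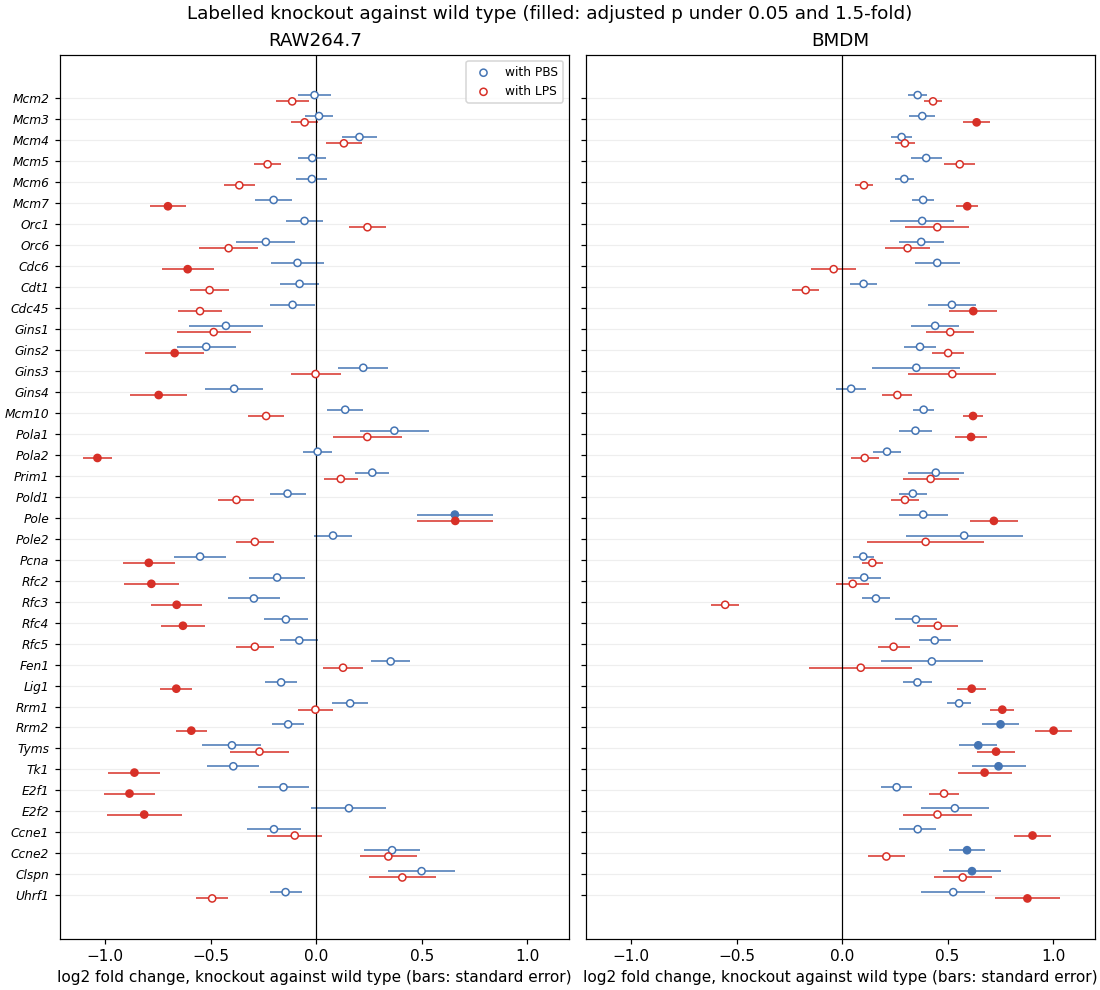
Log2 fold change, labelled knockout against wild type, of each of the 39 genes with PBS (blue) and with LPS (red), in RAW264.7 (left) and BMDMs (right). Bars are standard errors and filled points are DEGs. In BMDMs all 39 points with PBS and 36 with LPS lie right of 0, 1 and 5 of which change sign under median-ratio scaling, and in RAW264.7 with LPS 31 of 39 lie left of 0, 6 of which change sign under TPM scaling, with Pola2 farthest left.

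In RAW264.7 with PBS few of these genes passed the thresholds between genotypes. Only Pole, the catalytic subunit of polymerase epsilon, was a higher DEG, where 4.79% of all genes were, and 0 members were lower by limma, edgeR or DESeq2, where 3.77% were. At an unadjusted p under 0.05, 7 were higher and 8 lower. The median was -0.08, against 0.02 over expressed genes, and 0.11 under TPM scaling, where that of expressed genes was 0.20. Pole read 7.43, 7.47 and 7.40 FPKM in wild type and 8.23, 14.2 and 13.9 in the libraries labelled knockout (0.66 ± 0.18, adjusted p = 0.0442), the lowest of the latter being library 1. Its call was lost when any wild-type PBS library or labelled knockout PBS library 2 or 3 was left out (adjusted p = 0.103 to 0.148), under median-ratio scaling (0.0572), where Pcna became a lower DEG in its place, and in a fit of the 2 groups alone (0.232). Labelled knockout libraries lay above wild type for 8 members, where 23.0% of expressed genes did so, and below for 9, where 18.7% did. Pcna was the member with the largest difference downwards, at 207, 198 and 199.8 against 173, 123 and 123 FPKM (-0.55 ± 0.12, adjusted p = 0.0221), short of 1.5-fold.

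Labelled knockout PBS library 1 differed from its partners in these genes too. Its difference from the wild-type mean had a median of 0.02 over the 39 members, from -0.22 to 0.35, and libraries 2 and 3 together had -0.11, from -0.71 to 0.91. Library 1 was nearer to wild type for 27 of 39. Without it 6 members were DEGs, with Pcna (-0.71), Gins2 (-0.69) and Gins1 (-0.64) lower and Pole (0.91), Clspn (0.71) and Pola1 (0.59) higher. The share of all genes called in that fit was not counted. With library 1 included, 4.79% of all genes were higher and 3.77% lower. Gins1 is an example of the split, at 35.8 FPKM as the wild-type mean and a difference of -0.0025 for library 1 against -0.64 for libraries 2 and 3.

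In RAW264.7 with LPS, 14 members were lower DEGs in the libraries labelled knockout, where 7.60% of all genes were, and 1, Pole, was higher, where 9.73% were. The median was -0.38, against -0.02 over expressed genes, and 31 of 39 were negative, where 5794 of 11336 expressed genes were. Of the 31, Mcm2, Mcm3, Mcm5, Gins3, Rrm1 and Ccne1 turned positive under TPM scaling. Labelled knockout libraries lay below wild type for 26 members, where 37.0% of expressed genes did so, and above for 5, where 36.0% did. The clamp, loader and lagging strand genes held 5 of the 14, namely Pcna, Rfc2, Rfc3, Rfc4 and Lig1, and the others were Mcm7, Cdc6, Gins2, Gins4, Pola2, Rrm2, Tk1, E2f1 and E2f2. Pola2 differed most, at 9.64, 9.74 and 9.78 FPKM in wild type and 4.70, 4.54 and 4.83 in labelled knockout (-1.04 ± 0.07, adjusted p = 1.15e-05). E2f1 read 5.18, 4.12 and 5.03 and 2.21, 2.48 and 2.95 (-0.88 ± 0.12, adjusted p = 0.0011), Tk1 4.91, 5.22 and 5.52 and 2.60, 3.05 and 2.84 (-0.86 ± 0.12, adjusted p = 0.00131), and E2f2 0.58, 0.68 and 0.54 and 0.42, 0.2 and 0.3 (-0.81 ± 0.18, adjusted p = 0.0103). Pcna read 83.8, 84.5 and 83.99 and 50.3, 46.8 and 48.4 (-0.79 ± 0.12, adjusted p = 0.00214). In these 5 genes every labelled knockout library was below every wild-type library.

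The other lower DEGs were Rfc2 (-0.78 ± 0.13), Gins4 (-0.75 ± 0.14), Mcm7 (-0.70 ± 0.09), Gins2 (-0.67 ± 0.14), Lig1 (-0.66 ± 0.08), Rfc3 (-0.66 ± 0.12), Rfc4 (-0.63 ± 0.10), Cdc6 (-0.61 ± 0.12) and Rrm2 (-0.59 ± 0.07). The gene that went the other way was Pole, at 3.57, 3.44 and 3.27 FPKM in wild type and 5.44, 5.30 and 5.66 in labelled knockout (0.66 ± 0.18, adjusted p = 0.0255), and its call was lost whichever of the 6 LPS libraries was left out (adjusted p = 0.0565 to 0.0764) and with a pseudocount of 1 (0.55). Mcm3, at 45.4, 45.8 and 43.8 and 42.5, 43.04 and 44.4 FPKM, overlapped between genotypes, as did Rrm1 and Gins3. The size of the set depended on the scale: TPM scaling, which moved the median of expressed genes from -0.02 to 0.21, left 4 lower and 1 higher, while median-ratio scaling left 14 and 1. The call of E2f2 was lost with a pseudocount of 1 (-0.29) and in a fit of the 2 groups alone (adjusted p = 0.0618). The sums of macrophage markers were 3880 to 4013 FPKM in wild type and 1215 to 1278 in labelled knockout with LPS, and no marker of another lineage reached a mean of 1 FPKM. Their part in the result was not tested.

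Without a test, the 2 cell types were set beside each other over the 9523 genes whose mean FPKM reached 1 in both. With PBS, 8 members had all labelled knockout libraries below wild type in RAW264.7 and all knockout libraries above it in BMDMs, where 5.89% of genes did, and 8 others were above wild type in both, where 6.05% were. With LPS, 19 members were below in RAW264.7 and above in BMDMs, where 15.2% of genes were. With LPS, 4 members were lower DEGs in RAW264.7 labelled knockout and higher DEGs in knockout BMDMs, namely Lig1, Mcm7, Rrm2 and Tk1. Of all genes tested with LPS, 7.60% were lower DEGs in RAW264.7 and 3.23% higher DEGs in BMDMs, and the share that were both was not counted. Clspn, Mcm4, Pola1 and Pole were the 4 members whose knockout libraries were all higher in both cell types with LPS, where 20.2% of genes were. Of these, Mcm4, the helicase subunit, differed by 0.13 ± 0.08 in RAW264.7 and by 0.30 ± 0.05 in BMDMs, neither past 1.5-fold.

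Other genes of the cell cycle were counted from lists of 33 further replication genes, 24 mitosis genes and 21 regulators of G1 phase. Beside them, LPS lowered 12.5% and raised 5.80% of all genes in wild-type RAW264.7, and 32.5% and 7.94% in wild-type BMDMs. In labelled knockout it lowered 14.6% and raised 7.45% in RAW264.7, and 30.9% and 8.02% in BMDMs. Between genotypes with PBS, 4.79% of all genes were higher and 3.77% lower in RAW264.7, and 0.901% and 0.916% in BMDMs. With LPS these shares were 9.73% and 7.60%, and 3.23% and 1.53%. Further replication genes, such as the replication protein A subunits and chromatin assembly factors, were also mostly lower after LPS, with 26 lower and 0 higher in wild-type RAW264.7 and 29 lower and 0 higher in wild-type BMDMs. The licensing inhibitor Gmnn fell most, by 2.64 and 4.67. In the labelled knockout 26 and 31 were lower. Between genotypes, RAW264.7 had 2 higher and 1 lower with PBS, near the shares of all genes. With LPS it had 4 higher, also near that share, and 7 lower, led by the ribonuclease subunit Rnaseh2a (-1.19 ± 0.19). BMDMs had 0 DEGs with PBS by limma, edgeR and DESeq2, although 20 of 33 had an unadjusted p under 0.05 in limma and 11 passed the adjusted p alone, and 5 higher and 1 lower with LPS, the latter Wdhd1 (-1.38 ± 0.09).

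Mitosis genes were counted in the same way. In BMDM knockout 22 of 24 mitosis genes were higher DEGs with PBS and 21 with LPS (12 with a pseudocount of 1), with medians of 0.83 and 1.04, beside the members' 0.38 and 0.45. Among those called, Prc1, a spindle midzone protein, led with PBS (0.99 ± 0.14), and Cdc20, an activator of the anaphase-promoting complex, with LPS (1.86 ± 0.41). In wild-type RAW264.7 after LPS, 13 of 24 mitosis genes fell, with a median of -0.62 against the members' -1.28, a count that was 4 under median-ratio scaling, 6 in edgeR and 5 in DESeq2. In labelled knockout 7 did (15 by adjusted p alone), with -0.48 against -1.61. In wild-type BMDMs 23 of 24 fell, with a median of -2.97, and in knockout 24. RAW264.7 labelled knockout had 2 higher with PBS, where 4.79% of all genes were, and 3 with LPS, where 9.73% were. Among those with LPS was the proliferation marker Mki67 (1.19 ± 0.30), and 0 were lower with PBS or LPS. The differences between lists were not tested. Labelled knockout PBS library 1 decided several of these counts in RAW264.7: without it 11 mitosis genes fell after LPS in labelled knockout, and with PBS 11 of the further replication genes, 6 mitosis genes and 8 regulators of G1 phase were DEGs between genotypes. With LPS, leaving out any 1 library put the mitosis DEGs between RAW264.7 genotypes at 1 to 5, up to 2 of them lower, and TPM scaling put them at 10, all higher. Without any 1 of the other 5 PBS libraries, 1 of the further replication genes and 1 mitosis gene were DEGs with PBS. Shares of all genes without a library were not counted.

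Regulators of G1 phase moved both ways after LPS. In wild-type RAW264.7 11 of 20 tested fell and 4 rose, and in wild-type BMDMs 14 of 21 fell and 4 rose. The growth regulator Myc rose in RAW264.7 (6.22 ± 0.12) and fell in BMDMs (-3.27 ± 0.07), while the cyclin kinase inhibitor Cdkn1a rose in both (2.05 ± 0.09 and 3.15 ± 0.04). Cyclin D2 (Ccnd2) rose by 4.43 in BMDMs. The repressor E2f7 fell most in BMDMs (-3.96 ± 0.09) and E2f8 in RAW264.7 (-2.34 ± 0.15). In labelled knockout cells 12 fell and 4 rose in RAW264.7 and 14 fell and 4 rose in BMDMs. Between genotypes with PBS, RAW264.7 had 1 higher and 2 lower, where 4.79% and 3.77% of all genes were. With LPS it had 5 higher and 3 lower, where 9.73% and 7.60% were. BMDMs had 2 higher with PBS and 4 with LPS, where 0.901% and 3.23% were, and 0 lower. Myc was the largest in BMDMs with LPS (1.19 ± 0.07).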

How the data were processed

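RNA-seq was read from 24 libraries, in 8 groups of 3 set by the sample titles. Per the labels and file headers, the authors deposited 1 table for RAW264.7 and 1 for BMDMs, each with raw read counts and FPKM per library for 56691 genes, and the submitters' processing notes name mm10. For the aligner and the counter, names are not given in the sources consulted. Gene starts in the tables matched GENCODE M21 for 1485 of 52073 shared IDs, so table coordinates are not printed. FPKM above 50 counts matched the deposited counts divided by gene length and depth within 1% for 99.9% of 122116 values in RAW264.7 and 99.5% of 123096 in BMDMs. Depth was 11638273 to 22873094 counts per library, and counts below about 10 carry a large counting error.

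FPKM was tested as log2(FPKM + 0.1) with limma 3.58.1 in R 4.3.3, with 4 group means per cell type (8 residual degrees of freedom), over genes with FPKM above 0 in at least 1 library. P-values were adjusted by Benjamini-Hochberg over all genes tested, and a gene was called at an adjusted p under 0.05 and 1.5-fold. Fold changes on this scale understate those of low genes. Each cell type was tested within its own table. The 39 members and the other gene lists were chosen with earlier results of these data known. Values in every library are given for up to 5 called members of largest change per comparison and for the most abundant of each role, and up to 2 rises and 2 falls of other lists are named. Other members are given by change or range, and Mcm6's promoter and a few genes outside the rule were chosen after their values were seen. Promoter windows were taken for the member of each role with the smallest adjusted p after LPS in wild-type BMDMs. Those of Cdc6, Pold1 and Rrm2 were printed, those of Mcm2, Cdc45 and Rfc4, without a match, were not, and Ccne2 had no entry. The alternatives were a pseudocount of 1, FPKM of at least 1 in 3 libraries, TPM, median-ratio scaling, edgeR 4.0.16 and DESeq2 1.42.0 on counts, a replicate block, the 2 groups alone, adjusted p alone, and each library left out. The main limma fit, the replicate block, edgeR and DESeq2 were tested on simulated counts with known changes and the same dispersion for every gene, and the other alternatives were not.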

Additional observations from a re-analysis of the deposited data

Results flagged for a closer look

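In RAW264.7 the effect of the labelled knockout on Pola2, the regulatory subunit of polymerase alpha, differed between LPS and PBS by -1.04 on the log2 scale, so that it was lower with LPS (interaction, adjusted p = 0.000617, limma with Benjamini-Hochberg adjustment), with all 3 labelled knockout libraries below wild type with LPS and overlapping groups with PBS. In BMDMs the effect on the clamp loader subunit Rfc3 differed by -0.71 (adjusted p = 0.00222, limma), with all 3 knockout libraries above wild type with PBS and below it with LPS. With PBS, 8 of the 39 members had all 3 labelled knockout libraries below wild type in RAW264.7 and all 3 knockout libraries above it in BMDMs, namely Gins2, Lig1, Mcm7, Orc1, Pcna, Rrm2, Tk1 and Uhrf1, where 5.89% of the 9523 genes expressed in both did so. A further 8 members had all 3 knockout libraries above wild type in both cell types, where 6.05% of those genes did. These PBS counts include labelled knockout PBS library 1 of RAW264.7. With LPS, 19 members were below in RAW264.7 and above in BMDMs, where 15.2% of those genes were, and 4 were above in both, where 20.2% were. The difference between the cell types was not tested, since their tables were normalised separately.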

How the results depend on the processing

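After LPS the counts of members called, in both genotypes and cell types, stayed within 1.5 times their value under every alternative run. The genotype counts depended more on the settings. A pseudocount of 1 gave 9 of 15 in RAW264.7 with LPS, 2 of 5 in BMDMs with PBS and 3 of 13 in BMDMs with LPS. TPM scaling gave 5 in RAW264.7 with LPS. Median-ratio scaling gave 3 in BMDMs with PBS and 7 with LPS, edgeR 3 with PBS, and DESeq2 3 with PBS and 8 with LPS. Adjusted p alone gave 4 in RAW264.7 with PBS, 23 with LPS, 20 in BMDMs with PBS and 24 with LPS, and 2 for the BMDM interaction. Over all genes tested it gave 3244 and 6726 of 26740 in RAW264.7 with PBS and LPS. In BMDMs it gave 1116 and 4804 of 26973, and 1762 for the interaction. The RAW264.7 interaction count of 1 became 2 with the filter on FPKM and 4 with edgeR or DESeq2. The fit of 2 groups alone gave 0 in RAW264.7 with PBS. The cause of these changes was not tested.

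Leaving out a library gave 0 to 6 calls in RAW264.7 with PBS (6 without labelled knockout library 1, and 0 without any other of the 6), 12 to 14 with LPS, 35 to 37 after LPS in wild type, 37 to 39 in labelled knockout and 1 to 2 for the interaction. In BMDMs it gave 3 to 4 with PBS (3 without wild-type library 1 or 2 or knockout library 2 or 3), 10 to 15 with LPS, 38 after LPS in both genotypes and 1 to 2 for the interaction. Same-numbered libraries did not deviate together (correlations of -0.0395 to 0.0844 in RAW264.7 and -0.0579 to 0.0711 in BMDMs), so the numbers were not taken to pair libraries, and the replicate block gave 0 calls in RAW264.7 with PBS and moved no other count of members by over 1.5 times. Shares of all genes were not counted in the fits with a library left out. Depth limits E2f2 and Cdc6 in BMDMs with LPS, at 12 and 25 counts over the 3 wild-type libraries.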
